A study of Mus musculus with 7 samples.

Results

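The genes of the NF-kB subunits (Nfkb1, Nfkb2, Rela, Relb and Rel) and of 5 of their inhibitors and regulators (Nfkbia, Nfkbie, Nfkbiz, Bcl3 and Tnfaip3) were examined for open chromatin in mammary tumour cells that did or did not express the Notch ligand Dll1. Open regions of both cell populations were merged where they overlapped or touched, and a region was given to the protein-coding gene whose transcription start site (TSS) lay nearest to its midpoint. This placed 136 of 119215 regions with the 10 genes, 52 with the subunits and 84 with the inhibitors.

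ATAC-seq, in which a transposase cuts and tags open DNA for sequencing, was performed on cells of MMTV-PyMT mammary tumours, to ask how accessible chromatin differed with Dll1. Every sample came from a mouse with the MMTV-PyMT transgene, in which the mammary tumour virus promoter drives the polyoma middle T oncoprotein, and with the Dll1-mCherry reporter, carried on a bacterial artificial chromosome. Cells carrying CD45, CD31 or Ter119 were sorted out, mCherry-positive cells formed the Dll1+ group and mCherry-negative cells the Dll1- group, so that Dll1 status was read from the reporter. Of 7 samples from 4 tumours, 3 were Dll1+ and 4 were Dll1-, and 3 tumours gave both. The age of the mice is not given in the labels used here. The authors deposited 1 peak list per group, with the samples of the group pooled. Per-sample values and the spread between tumours were therefore not analysed here, no p-value is given, and each difference describes 2 pooled lists.

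NF-kB proteins are dimers that bind DNA at kappaB sites. In resting cells most dimers are held in the cytoplasm by inhibitor proteins of the IkB family, and signals from cytokine and pattern receptors lead to breakdown of the inhibitor and release of the dimer. Several of the genes that the released dimers switch on encode subunits and inhibitors themselves, so the pathway feeds back on its own parts. In mammary epithelium NF-kB acts in gland development and in the response to inflammation.

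The Dll1+ list held 132872 rows and the Dll1- list 148923 rows, each with a summit, a fold enrichment over local background and a −log10 p-value. From these values the reads at a summit were recovered, and the genome-wide background came to 3.74 reads for Dll1+ and 7.20 for Dll1-, so the Dll1- list was 1.93 times deeper. Strength is therefore given as a percentile of fold enrichment within each list, where 100 is the strongest row. The labelled cell type was checked against marker genes. Promoters of 10 of 10 epithelial genes, Epcam, Cdh1 and Krt8 among them, were open in both lists. The promoters of Ptprc, which encodes CD45, and Pecam1, which encodes CD31, were in neither list. Of 10 immune genes the promoter was open for 2 in Dll1+ and 3 in Dll1-, of 6 endothelial genes for 1 in each, and of 6 fibroblast genes for 1 and 3. In such bulk material fewer cells with an open region and less signal per cell cannot be told apart.

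Several promoters of the 10 genes carry the sequence that the members' own products bind. A region summit lay within 100 bp of a match to the NF-kB consensus, a pattern of 10 bases searched on both strands, in 7 of the 12 regions that touched a promoter of a member. The following matches are shown because NF-kB genes with kappaB sites are the known basis of feedback in the pathway. Each line gives 30 bases of GRCm38.p6 on the strand that reads as the consensus, with the match in capitals.
Nfkb1 promoter, chr3:135691497-135691526, minus strand: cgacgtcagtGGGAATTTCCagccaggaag
Nfkb2 promoter, chr19:46304688-46304717, plus strand: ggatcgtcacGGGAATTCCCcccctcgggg
Nfkbia promoter, chr12:55492657-55492686, plus strand: gtcaggcgcgGGGAATTTCCaagccagtca
Nfkbie promoter, chr17:45555584-45555613, plus strand: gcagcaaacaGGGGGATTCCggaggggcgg
Nfkbiz promoter, chr16:55838850-55838879, minus strand: tttttggcctGGGAATTTCCagcgtgtgga
Bcl3 region at the promoter, chr7:19824346-19824375, plus strand: gcagcagctcGGGGCTTTCCcggacatccc
Tnfaip3 promoter, chr10:19015516-19015545, minus strand: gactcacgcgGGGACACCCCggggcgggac

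The same 10 bases, GGGAATTTCC, stood at the promoters of Nfkb1, Nfkbia and Nfkbiz. They occurred 5 times among the 136 regions, the other places being a region upstream of Relb and a region far downstream of Nfkbiz. The Nfkb1 match overlapped a match to GTGGGAA, the sequence bound by RBPJ, the DNA-binding partner of Notch. At Nfkb2 a second match lay on the other strand, 1 base along, and the same was seen in 1 region each of Rel, Nfkbia and Nfkbiz. The Bcl3 match lay 1591 bp upstream of the TSS, in a region that reached the promoter, and the other 6 lay within 121 bp of a TSS. A match is a description of the letters and does not show binding.

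The RefSeq promoter table of GRCm38.p6 had entries for 7 of the 10 genes, 10 entries in all, each from 250 bases before to 50 bases after a start. The consensus stood in 8 of these 10 entries (80%), which belong to 6 genes, beside 4.51% of all 32851 entries. Entries of 1 gene can overlap. The promoter of Nfkbia, the gene of IkB-alpha, is given because this inhibitor is the best known feedback gene of the pathway. Its 250 bases before the start, at chr12:55492648-55492897 on the minus strand, are printed 5′ to 3′ with the match, which reads as the consensus on the other strand, in capitals.
Nfkbia promoter: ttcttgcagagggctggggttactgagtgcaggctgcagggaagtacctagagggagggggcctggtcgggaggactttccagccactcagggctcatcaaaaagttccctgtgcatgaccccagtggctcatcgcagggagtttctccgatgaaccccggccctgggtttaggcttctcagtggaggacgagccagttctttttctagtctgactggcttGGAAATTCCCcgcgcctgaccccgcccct

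Away from promoters, kappaB matches stood in 10 of 124 regions. The following 4 are shown as examples, of which 2 lay within 9 bp of the summit of a shared region and 2 in regions of the Dll1- list alone. Each line holds 60 bases of GRCm38.p6 with the match in capitals, and distances are counted from the nearest TSS.
Nfkbia region 45.6 kb downstream, chr12:55446842-55446901, plus strand: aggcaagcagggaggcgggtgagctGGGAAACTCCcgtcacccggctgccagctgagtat
Nfkbiz region 186 kb downstream, chr16:55636343-55636402, plus strand: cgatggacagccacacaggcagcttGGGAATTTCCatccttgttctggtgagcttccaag
Rel region 16.6 kb downstream, chr11:23754392-23754451, plus strand: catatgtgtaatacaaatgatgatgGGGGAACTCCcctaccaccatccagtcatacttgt
Relb region 5.69 kb upstream, chr7:19635103-19635162, plus strand: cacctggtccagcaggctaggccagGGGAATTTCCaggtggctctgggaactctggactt

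The next set holds matches to TGACTCA, the AP-1 sequence (bound by Fos and Jun dimers), at 4 regions of inhibitor genes that were stronger in the Dll1- list or absent from the Dll1+ list. The match is in capitals.
Tnfaip3 region 30.8 kb upstream, chr10:19046195-19046251, minus strand: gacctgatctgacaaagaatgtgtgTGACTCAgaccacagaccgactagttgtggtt
Tnfaip3 region 66.9 kb upstream, chr10:19082296-19082352, minus strand: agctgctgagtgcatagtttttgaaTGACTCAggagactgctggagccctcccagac
Nfkbiz region 88 kb downstream, chr16:55733944-55734000, minus strand: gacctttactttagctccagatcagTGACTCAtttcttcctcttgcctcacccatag
Bcl3 region 14.4 kb upstream, chr7:19837075-19837131, minus strand: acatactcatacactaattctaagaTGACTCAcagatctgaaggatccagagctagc

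The last set shows 81 bases around the summits of 3 regions that leaned to the Dll1+ list by reads ratio or were in that list alone. The summit is that of the list with the higher percentile. For the Nfkb1 region this was the Dll1- list, whose summit lay 13 bp from the Dll1+ summit. They were picked for their values and held none of the 3 sequences searched, so no base is in capitals. Other regions toward Dll1+ did hold matches, such as the RBPJ matches of the Nfkb1 regions 43.2 and 3.16 kb into the gene and the AP-1 match of the Nfkb1 region 18.4 kb into the gene.
Nfkb1 region, chr3:135651157-135651237, plus strand: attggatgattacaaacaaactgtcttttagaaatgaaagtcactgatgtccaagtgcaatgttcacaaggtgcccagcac
Nfkbie region, chr17:45558628-45558708, plus strand: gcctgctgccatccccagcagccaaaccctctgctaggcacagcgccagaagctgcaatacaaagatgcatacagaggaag
Tnfaip3 region, chr10:18962332-18962412, plus strand: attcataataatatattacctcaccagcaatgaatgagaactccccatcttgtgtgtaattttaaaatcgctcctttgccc

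Presence was compared first. Of the 136 regions, 94 were in both lists, 10 in the Dll1+ list only and 32 in the Dll1- list only. The shared share was 69.1% (Wilson 95% interval 60.9 to 76.3%) beside 66.4% of all regions. The Dll1+ only share was 7.35% (4.04 to 13.0%) beside 9.01% of all regions, and the Dll1- only share was 23.5% (17.2 to 31.3%) beside 24.6%. The intervals of the 10 genes thus held the values of the whole genome in all 3 classes. They cover counting error only, since neither regions nor reads, which carry no molecular identifiers, are independent replicates.

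Subunits and inhibitors were split in like shares. The subunit genes had 36 shared (69.2%), 4 Dll1+ only (7.69%) and 12 Dll1- only regions (23.1%), and the inhibitor genes 58 (69%), 6 (7.14%) and 20 (23.8%). With the rows as deposited, no member had more Dll1+ only than Dll1- only regions. This did not hold in every setting: Nfkb1 had 5 and 4 with equal numbers of rows, Nfkb2 and Nfkbie 1 and 0 each with the stronger rows, Nfkb1 1 and 0 when a list-only region had to reach the median fold, and Nfkbiz 2 and 1 within 50 kb. As deposited, the Dll1- only regions were more numerous in 9 genes, and Nfkbie had no list-only region. Of the 42 list-only regions, 23.8% (13.5 to 38.5%) were in the Dll1+ list, beside 26.8% of all list-only regions.

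**Figure D1:**
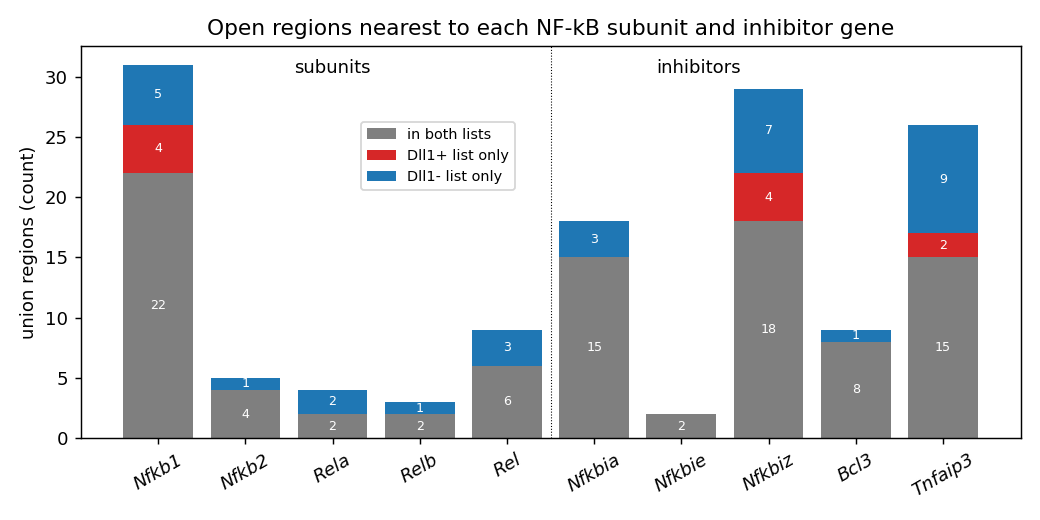
Stacked bars count the regions nearest to each gene that were in both lists (grey), the Dll1+ list only (red) or the Dll1- list only (blue), with subunit genes left of the dotted line. Nfkb1, Nfkbiz and Tnfaip3 had 31, 29 and 26 regions and are the only genes with red segments, of 4, 4 and 2 regions.

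Regions were unevenly spread over the genes. Nfkb1 had 31 regions, more than 98.0% of 21924 protein-coding genes, whose median was 3. Nfkbiz had 29, Tnfaip3 26 and Nfkbia 18, each more than at least 93.2% of genes. Rela had 4, Relb 3 and Nfkbie 2 regions. A larger share of the members' regions was intergenic than in the whole set (55.1% beside 34.7%), and fewer touched a promoter of their gene (8.82% beside 12.6%). The median distance to the TSS was 26.1 kb, beside 23.1 kb over all regions.

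**Figure D2:**
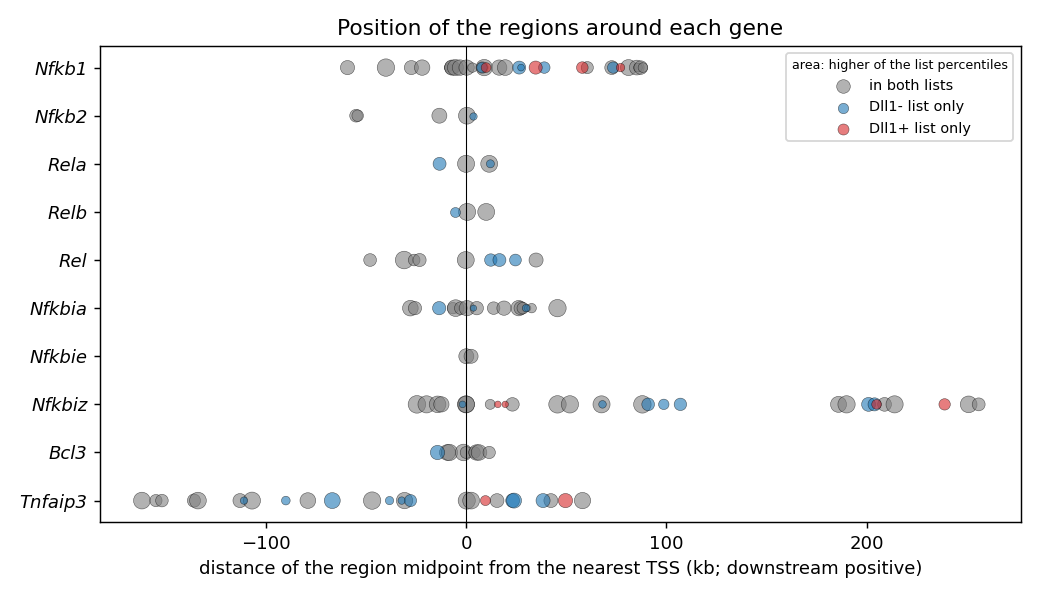
Each point is a region, placed at the signed distance of its midpoint from the nearest TSS in kb, with the area set by the higher of its percentiles in the 2 lists and the colour by list. Regions of Nfkbiz reach 256 kb downstream and those of Tnfaip3 162 kb upstream, while both regions of Nfkbie lie within 2.43 kb of the TSS.

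Strength was then compared in the 94 shared regions. The median difference of percentile, Dll1+ minus Dll1-, was −2.91 points, beside −1.67 over all 79153 shared regions. The percentile was higher in the Dll1- list in 59 of 94 regions (59% of all shared regions). A difference of at least 20 points toward Dll1+ was seen in 10 of 94 regions (6.39% of all shared regions) and toward Dll1- in 9 (11.1%). The members' shares were 10.6% and 9.57%, so few regions separated them from the background in either direction.

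A percentile of fold enrichment moves with the local background as well as with the reads at the summit. Reads were therefore also compared, each divided by the genome-wide background of its list, as the ratio Dll1+ over Dll1- with the median of all shared regions (1.18) set to 1. A ratio of at least 1.5 toward Dll1+ was reached by 16 of 94 regions (12.5% of all shared regions) and toward Dll1- by 8 (12.3%). The ratio lay above 1 in 47 regions and below 1 in 47, and its median was 0.991. Without the centring, 29 regions leaned to Dll1+ and 4 to Dll1-, beside 23.6% and 6.21% of all shared regions.

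The leaning regions were divided by role. Of the 36 shared regions of the subunit genes, 9 reached a ratio of 1.5 toward Dll1+ and 0 toward Dll1-, beside the 12.5% and 12.3% of all shared regions. Nfkb1 alone held 22 of the 36 regions and gave 6 of the 9, while Rel gave 2, Nfkb2 1, and Rela and Relb 0. By percentile the subunit genes were not one-sided, with 5 regions at least 20 points toward Dll1+ and 3 toward Dll1-, 17 and 19 higher in either list, and a median difference of −0.871. Of the 58 of the inhibitor genes, 7 leaned to Dll1+ and 8 to Dll1-. Their median ratio was 0.899, and without the centring it stood on the other side of 1, at 1.06, with 13 regions toward Dll1+ and 4 toward Dll1-. Without it the subunit genes had 16 and 0. The 95% counting interval of the ratio lay clear of 1 in 13 of the 16 regions toward Dll1+ and in 6 of the 8 toward Dll1-. These intervals rest on the same reads by which the regions were picked, so they give no separate support. The like share over all shared regions was not counted.

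**Figure D3:**
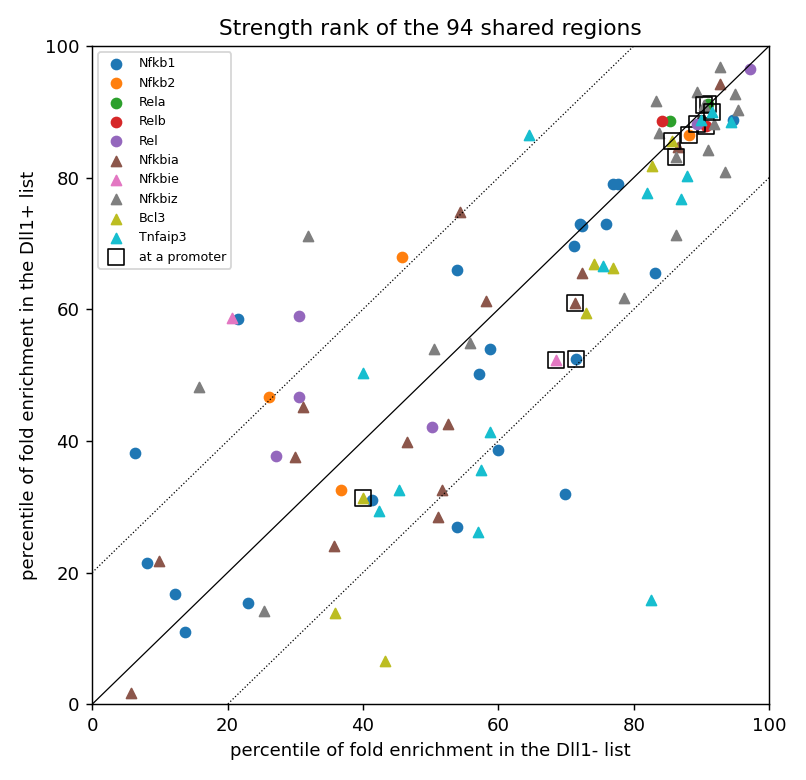
Each point is 1 of the 94 shared regions, with its percentile of fold enrichment in the Dll1- list on the horizontal and in the Dll1+ list on the vertical axis. Circles are subunit genes, triangles inhibitor genes and squares mark promoters, and the dotted lines stand 20 points from equality. The farthest point below them is a Tnfaip3 region at 82.5 in Dll1- and 15.9 in Dll1+.

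The promoters of all 10 genes were open in both lists. The 12 regions that touched a promoter were all shared, as were 90.2% of all 15051 regions that touched a promoter of their nearest gene. The strongest promoter region of each gene stood between percentiles 52.3 and 91.2 in Dll1+ and between 68.5 and 91.6 in Dll1-. Rela, which encodes the activating subunit p65, was at 91.2 and 90.9, with 154 and 257 reads. Rel (c-Rel) was at 88.2 and 89.3, Relb, a subunit of the non-canonical branch, at 87.8 and 90.7, and Nfkb2, whose product is cut to p52, at 86.5 and 88.2. In these 4 genes the promoter stood within 3 points in the 2 lists.

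**Figure D4:**
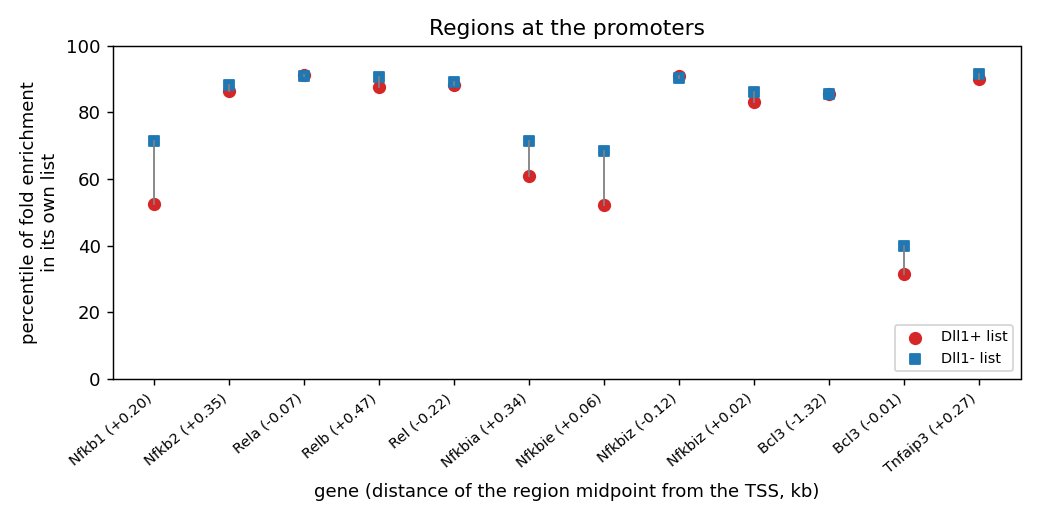
For each region at a promoter, named by gene and by the distance of its midpoint from the TSS in kb, the percentile of fold enrichment is shown in the Dll1+ list (red circle) and the Dll1- list (blue square). The symbols almost coincide in Nfkb2, Rela, Relb, Rel, Nfkbiz, Tnfaip3 and the upstream region of Bcl3, and the Dll1- symbol is higher in Nfkb1, Nfkbia, Nfkbie and the region at the Bcl3 start.

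The promoters of Nfkb1, Nfkbia and Nfkbie and the region at the Bcl3 start ranked lower in the Dll1+ list. The Nfkb1 promoter was at percentile 52.4 in Dll1+ and 71.5 in Dll1-, with 97 and 158 reads, and its centred reads ratio was 1.00 (0.769 to 1.30). Its local background was 4.22 times the genome-wide level in Dll1+ and 2.74 times in Dll1-. The ratio of these backgrounds was larger than the uncentred reads ratio, which for this region was close to the 1.18 of all shared regions. The Nfkbia promoter was at 61.0 and 71.3, with 269 and 503 reads, on backgrounds 10.4 and 9.05 times the genome-wide level, and its ratio was 0.872 (0.749 to 1.01). The Nfkbie promoter was at 52.3 and 68.5, with 98 and 203 reads and a ratio of 0.787 (0.612 to 1.01). The region at the Bcl3 start was at 31.3 and 40, with 86 and 157 reads and a ratio of 0.893 (0.678 to 1.17).

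Nfkb1 encodes p105, which is cut to the subunit p50 and acts as an inhibitor while whole. It lies on chromosome 3, on the minus strand, and 22 of its 31 regions lay in the gene body. Of its 22 shared regions 6 reached a ratio of 1.5 toward Dll1+ and 0 toward Dll1-, and in 16 the ratio was above 1 (10, 0 and 17 without the centring). The median ratio was 1.13, while the median percentile difference was −2.82. The percentile is not centred, and the median over all shared regions was −1.67. Ranked among shared regions only, the median of Nfkb1 was −0.256. The local background of its shared regions, relative to the genome-wide level, had a median of 3.71 in Dll1+ and 2.57 in Dll1-.

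A pair of neighbouring regions inside Nfkb1 had high ratios and level percentiles. The region at chr3:135650907-135651594, 40.3 kb into the gene, had 146 reads (95% Poisson interval 123 to 172) in the shallower Dll1+ list and 115 (94.9 to 138) in the Dll1- list. Its ratio was 2.07 (1.61 to 2.67), while its percentiles of fold enrichment were 69.6 and 71.2. The region at chr3:135648054-135648634, 43.2 kb into the gene, had 151 and 124 reads and a ratio of 1.98 (1.55 to 2.54), at percentiles 73.0 and 75.9. In both regions the local background was also higher in the shallower list, at 17.2 and 16.5 reads in Dll1+ against 14.3 and 13.7 in Dll1-. When reads themselves were ranked in each list, these regions stood at 89.3 and 89.9 in Dll1+ and at 74.6 and 76.8 in Dll1-.

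Other Nfkb1 regions leaned either way by percentile. The region 31.8 kb into the gene (chr3:135659451-135660072) was at 38.1 in Dll1+ and 6.30 in Dll1-, with 31 and 22 reads and a ratio of 2.30 (1.29 to 4.16). The region 7.25 kb upstream of the gene was 37.0 points higher in Dll1+, at 58.5 and 21.5. The intron region at chr3:135674671-135675051, 16.7 kb into the gene, went the other way. It was at 31.9 and 69.9, with 90 and 215 reads, a ratio of 0.682 (0.527 to 0.876) and an AP-1 match 25 bp from its summit. The strongest Nfkb1 region in both lists lay 40.1 kb upstream, with folds of 13.1 and 15.9 and a ratio of 0.697 (0.562 to 0.861).

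The list-only regions of Nfkb1 had median percentiles of 30.4 in Dll1+ and 35.2 in Dll1-, beside 29.4 and 32.6 for all list-only regions. Its 4 Dll1+ only regions, all in introns, had folds from 3.15 to 5.60 with 23 to 29 reads, and the highest lay 58.5 kb into the gene at percentile 50.1. The 5 Dll1- only regions had folds from 2.32 to 4.88 with 18 to 39 reads, and the highest, 50.2 kb into the gene, stood at percentile 48.8. An AP-1 match stood in 2 of these 5 and a kappaB match in 1. A match to the RBPJ sequence GTGGGAA stood in 5 of the 31 Nfkb1 regions (16.1%, 7.09 to 32.6%), beside 4.30% of all regions, and 1 of these is the promoter.

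The other subunit genes held fewer regions and no Dll1+ only region. Nfkb2 had 4 shared regions and 1 Dll1- only region, in a coding exon 4.93 kb into the gene, with 98 reads at percentile 9.75. Its region 13.4 kb upstream stood at 67.9 in Dll1+ and 45.7 in Dll1-, with 36 and 37 reads and a ratio of 1.59 (0.974 to 2.58), an interval that includes 1. Its region 54.2 kb upstream, at 32.5 and 36.7, was farthest the other way. Rela had 2 shared regions, the promoter and a region 11.5 kb downstream at 88.6 and 85.3, with ratios of 0.977 and 0.922. It also had 2 Dll1- only regions, and the stronger, 13.3 kb upstream, had a fold of 4.88 and 39 reads at percentile 48.8 and holds an AP-1 match. Relb had its promoter and an intron region at 88.6 and 84.1. Its only list-only region, 5.69 kb upstream in the Dll1- list, had 30 reads and holds the GGGAATTTCC printed above.

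Rel had 6 shared and 3 Dll1- only regions. Its region at chr11:23801570-23802451, 31.0 kb upstream, was the strongest of all 136 in the Dll1- list, with folds of 18.0 in Dll1+ and 18.4 in Dll1- and percentiles 96.5 and 97.2. It had 251 and 303 reads and a ratio of 1.35 (1.14 to 1.60). A neighbour 26.0 kb upstream had 54 and 45 reads and a ratio of 1.96 (1.29 to 2.97). The region 34.9 kb downstream of the TSS was 28.5 points higher in Dll1+, with 30 and 29 reads, and its ratio of 1.69 had an interval (0.978 to 2.91) that includes 1. The region farthest toward Dll1- by percentile lay 23.3 kb upstream, at 42.1 and 50.2. The 3 Dll1- only regions were all in introns, with 33 to 39 reads, and the strongest held the paired kappaB match printed above together with an RBPJ match.

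**Figure D5:**
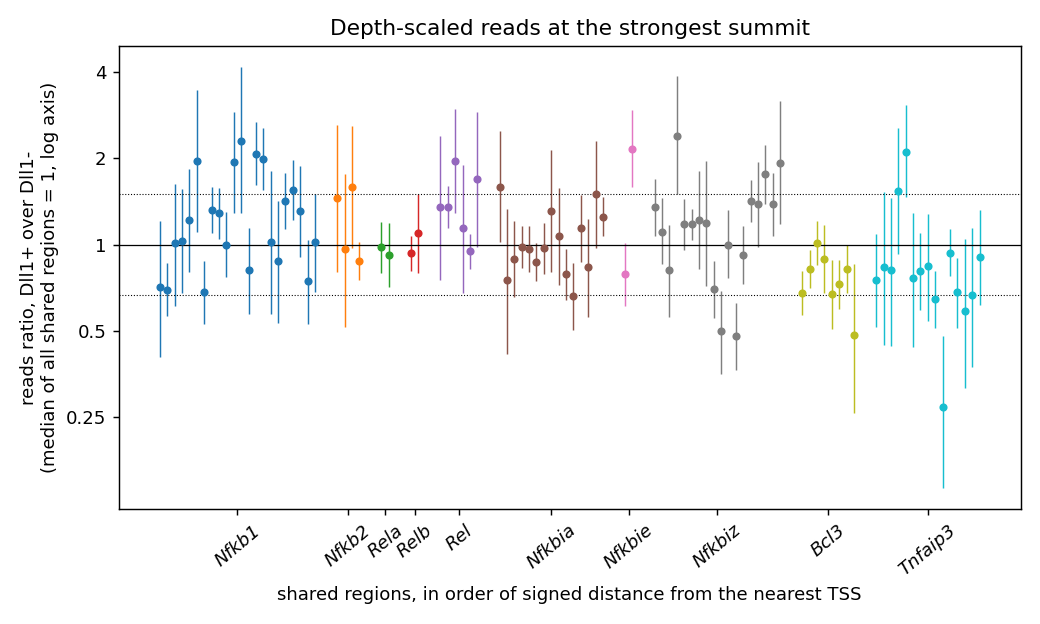
Points give the depth-scaled reads ratio, Dll1+ over Dll1-, of each shared region on a log axis, with 95% counting intervals, ordered within each gene by signed distance from the nearest TSS. Dotted lines stand at 1.5 in each direction. Nfkb1 has 6 points above the upper line and none below the lower, 7 of 8 Bcl3 points lie below 1, and the lowest point is a Tnfaip3 region at 0.272.

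Nfkbia encodes IkB-alpha, the inhibitor that is broken down and made anew in each round of signalling. It had 15 shared, 0 Dll1+ only and 3 Dll1- only regions, all within 50 kb of its start. The median ratio of its shared regions was 0.971, with 1 region past 1.5 toward Dll1+ and 1 toward Dll1-, and without the centring it was 1.15, with 3 and 0. The region 27.9 kb upstream was 20.5 points higher in Dll1+ (42 and 43 reads, ratio 1.59, 1.02 to 2.49). A region 27.2 kb downstream of the TSS was 22.7 points higher in Dll1- (78 and 192 reads, ratio 0.662, 0.502 to 0.866), although its summits in the 2 lists were 750 bp apart. The strongest Nfkbia region lay 45.6 kb downstream, holds a kappaB match printed above, and stood at 94.2 and 92.8 with a ratio of 1.25 (1.07 to 1.46). Its strongest Dll1- only region lay 13.5 kb upstream, with a fold of 5.12 and 41 reads.

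Nfkbie encodes IkB-epsilon and had 2 regions, both shared. Beside its promoter it had a region in an intron 2.43 kb into the gene (chr17:45557449-45558837). This region stood at 58.7 in Dll1+ and 20.7 in Dll1-, with 102 reads (83.2 to 124) and 77 (60.8 to 96.2) and a ratio of 2.16 (1.59 to 2.94). The strongest summits in the 2 lists were 465 bp apart here, so the values belong to different places of a broad region. By percentile, the promoter and the intron region of this gene stood on opposite sides. This holds for the strongest row of each region, and with the mean over rows the median difference of the 2 regions was −18.2 in place of 10.9.

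Nfkbiz encodes IkB-zeta, an inhibitor-like protein of the nucleus that acts with p50 to switch on secondary response genes. It had 18 shared, 4 Dll1+ only and 7 Dll1- only regions, and its regions extended over a stretch with no nearer protein-coding start up to 256 kb downstream of the nearest TSS, from which distances are given here. It holds 2 separate promoter regions, at 91.0 and 90.4 for the upstream start and at 83.1 and 86.2 for the start 16.8 kb inside the gene. The strongest of all 136 regions in the Dll1+ list lay 24.6 kb upstream, with folds of 18.2 and 14.5 and 143 and 173 reads.

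Regions of Nfkbiz leaned to both lists. The region 12.4 kb upstream (chr16:55851089-55851571) stood at 71.2 in Dll1+ and 31.9 in Dll1-, with 47 and 32 reads and a ratio of 2.39 (1.5 to 3.88), the highest of the 94. The region 214 kb downstream had 151 and 140 reads and a ratio of 1.76 (1.39 to 2.23). Toward Dll1- stood the regions 51.8 and 88.0 kb downstream, each with an AP-1 match. The nearer (chr16:55770040-55770675) had 49 and 160 reads and a ratio of 0.499 (0.355 to 0.691). The farther (chr16:55733709-55734467) had 73 and 247 reads and a ratio of 0.482 (0.366 to 0.628). Their percentiles of fold were 80.9 and 93.5 for the nearer and 90.2 and 95.4 for the farther. Ranked by reads, they stood at 55.8 and 83.2 and at 71.4 and 91.3. The largest percentile gap toward Dll1- was at the kappaB region 186 kb downstream, at 61.7 and 78.6.

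The list-only regions of Nfkbiz lay on both sides of the typical list-only region. The 4 in the Dll1+ list had 17 to 32 reads and a median percentile of 14.7, beside 29.4 over all Dll1+ only regions, and reached 35.6 at the region 239 kb downstream. The 7 in the Dll1- list had 27 to 122 reads and a median percentile of 44.0, beside 32.6 over all Dll1- only regions, and reached 57.4 at the region 201 kb downstream.

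Bcl3 encodes another nuclear IkB protein, which joins p50 and p52 dimers and can turn them into activators. It had 8 shared and 1 Dll1- only region. The reads ratio lay below 1 in 7 of the 8 shared regions, with a median of 0.774 and a range of 0.483 to 1.01, and the interval lay below 1 in 6 of them. Without the centring, 6 of 8 were below 1, the median was 0.915, and the interval lay below 1 in only 1 region and above 1 in 1. The percentile was higher in the Dll1- list in 7 of 8 regions, beside 59% of all shared regions. The region 1.32 kb upstream, with kappaB and AP-1 matches, was level in the 2 lists at 85.6 and 85.6 (210 and 338 reads, ratio 1.01). The region 9.37 kb upstream had 176 and 422 reads and a ratio of 0.680 (0.567 to 0.812), and the intron region 11.5 kb into the gene had 16 and 54 reads and a ratio of 0.483 (0.258 to 0.856). The single list-only region, 14.4 kb upstream in the Dll1- list, had 120 reads (99.5 to 143) at percentile 61.3 and holds AP-1 and RBPJ matches.

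Tnfaip3 encodes A20, an enzyme that edits ubiquitin chains on signalling proteins and shuts the pathway off. It had 15 shared, 2 Dll1+ only and 9 Dll1- only regions, the most Dll1- only regions of any member. With equal numbers of rows taken from each list it had 5, and Nfkbiz had 6. The Dll1- only share was 34.6% (19.4 to 53.8%), an interval that holds the 24.6% of all regions. In 13 of the 15 shared regions both the percentile and the reads ratio were lower in Dll1+. Over all shared regions the percentile was higher in Dll1- in 59%. A ratio of 1.5 toward Dll1- was reached by 4 regions, with the interval clear of 1 in 2 of them, and toward Dll1+ by 2, with 1 interval clear of 1. The shares of all shared regions were 12.3% and 12.5%. Without the centring the ratio was below 1 in 11 of 15, but only 1 region reached 1.5 toward Dll1- and 2 toward Dll1+, so the balance of these counts rests on the centring. Its promoter was level, at 90.0 and 91.6 with 179 and 311 reads and a ratio of 0.938 (0.776 to 1.13).

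The largest difference of all 94 shared regions was upstream of Tnfaip3. The region at chr10:19046007-19046408, 30.8 kb upstream, had 14 reads (7.65 to 23.5) in Dll1+ and 84 (67.0 to 104) in Dll1-. It stood at percentiles 15.9 and 82.5 on a background close to the genome-wide level in both lists, and the ratio was 0.272 (0.142 to 0.481). An AP-1 match lay 9 bp from its summit. At chr10:19082055-19082485, 66.9 kb upstream, the Dll1- list had the strongest list-only region of any member, with a fold of 8.90, percentile 77.8 and 72 reads (56.3 to 90.7). It too holds an AP-1 match. The strongest Tnfaip3 region in the Dll1- list, 47.0 kb upstream, stood at 88.4 and 94.4 with 105 and 265 reads and a ratio of 0.646 (0.510 to 0.812).

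The opposite lean was seen farther out. The region 134 kb upstream of Tnfaip3 (chr10:19149186-19149710) stood at 86.5 in Dll1+ and 64.5 in Dll1-, with 70 and 54 reads and a ratio of 2.11 (1.46 to 3.07). The Dll1+ only region 49.6 kb downstream of the nearest Tnfaip3 TSS (chr10:18962199-18962609) was the strongest Dll1+ only region of the members, with a fold of 6.75, percentile 60.7 and 31 reads (21.1 to 44.0). The gene Perp was the next nearest to the regions 30.8 and 66.9 kb upstream and to this one, so the nearest TSS does not show which gene a region serves.

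Tnfaip3 and other members are also active in immune and stromal cells. Regions nearest to the 6 fibroblast markers counted 30 shared, 1 Dll1+ only and 30 Dll1- only (49.2%, 37.1 to 61.4%), beside the 24.6% of all regions. Those nearest to the 10 immune markers counted 19, 2 and 11 (34.4%, 20.4 to 51.7%), and those nearest to the 6 endothelial markers 45, 6 and 24 (32%, 22.5 to 43.2%). The immune and endothelial intervals both include the 24.6%. Regions nearest to the 10 epithelial markers went the other way, with 131, 19 and 22 (12.8%, 8.6 to 18.6%). Csf1r, Pdgfrb and Col1a2 had an open promoter in the Dll1- list only, at percentiles 76.0, 48.5 and 51.6. Their part in the Tnfaip3 and Bcl3 values was not tested.

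The consensus sequences were counted over classes of regions. An NF-kB match stood within 100 bp of the summit in 17 of 136 regions (12.5%, 7.95 to 19.1%) beside 3.02% of all regions. At the 12 regions touching promoters the share was 58.3% (32.0 to 80.7%) beside 3.62% of all regions that touched a promoter of their nearest gene, and away from promoters 8.06% (4.44 to 14.2%) beside 2.93%. The matches were in 14 of 94 shared regions, in 3 of 32 Dll1- only regions and in 0 of 10 Dll1+ only regions. For 0 of 10 the upper Wilson limit is 27.8%, so a difference from the other classes was not detectable with so few regions.

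Matches to the AP-1 sequence were the most frequent of the 3. TGACTCA stood in 30 of 136 regions (22.1%, 15.9 to 29.7%) beside 18.1% of all regions. It was in 21 of 94 shared regions (22.3%, 15.1 to 31.8%) beside 15.4% of all shared regions, and in 9 of 32 Dll1- only regions (28.1%, 15.6 to 45.4%) beside 30.4%. The intervals of these classes overlapped. It was in 0 of 10 Dll1+ only regions, with the same upper limit of 27.8%, beside 4.40% of all such regions. Among the 21 shared regions with a TGACTCA match, the centred reads ratio was below 1 in 14 (66.7%) and above 1 in 7, beside 73.8% below 1 among all shared regions with a match. Without the centring, 11 were below 1 and 10 above. The 7 centred ratios above 1 included those of the Nfkb1 region 18.4 kb into the gene, at 1.32 (1.10 to 1.59), and the Nfkbia region 32.7 kb from the start, at 1.5 (0.976 to 2.29). The RBPJ sequence stood in 11 of 136 regions (8.09%, 4.58 to 13.9%) beside 4.30%.

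The remaining NF-kB pathway was counted over 62 genes in 4 lists. Their 476 regions were 327 shared, 40 Dll1+ only and 109 Dll1- only, so that 26.8% (20.4 to 34.5%) of list-only regions were in the Dll1+ list, beside 26.8% over all regions. The 15 receptor genes, which receive the signals, had 16 Dll1+ only and 30 Dll1- only regions, and the 22 adaptors and ubiquitin enzymes had 8 and 26. The 11 kinases had 15 and 30, of which Map3k7, the gene of the kinase TAK1, gave 8 and 10. The 14 further inhibitors and co-factors had 1 and 23, and 4.17% (0.739 to 20.2%) of these list-only regions were in the Dll1+ list.

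Of the genes in these lists, 15 had at least 4 list-only regions. The share of all protein-coding genes with as many was not counted. The splits below stand beside the 26.8% of all list-only regions that were in the Dll1+ list. Among receptors, Il1r1 and Tlr4 each had 4 Dll1+ only and 6 Dll1- only regions, while Il1rap had 3 and 3 and Tlr5 2 and 2. Among adaptors and ubiquitin enzymes, Traf6 had 2 and 2, Ripk2 1 and 3, and Bcl10 1 and 4. Map3k14, which encodes the kinase NIK of the non-canonical branch, had 1 and 5, Tab2, a partner of TAK1, 2 and 6, Map3k8 2 and 3, and Ikbke 1 and 3. The A20-binding protein gene Tnip1 had 0 and 5, the deubiquitinase gene Otud7b 0 and 4, and Tax1bp1, which encodes a partner of A20, 0 and 4.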

How the data were processed

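ATAC-seq was analysed from 2 peak lists, 1 for the Dll1+ samples and 1 for the Dll1- samples. The authors put the replicates of a group through the ENCODE pipeline for this assay together and deposited its optimal peak list. The peak caller and thresholds are not given in the sources used here. The deposited fold enrichment is a ratio of reads at a summit to local background, the deposited −log10 p-value and −log10 q-value belong to that summit, and the deposited score is 10 times the −log10 p-value up to a cap. The q-values and scores were used for nothing further. The lowest −log10 p was 2.00 in both lists. The submitters' processing notes name the builds mm10 and GRCm38. In neither list did a row pass a chromosome end of GRCm38 (0 rows).

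Rows were merged into union regions, and the TSS of every transcript of a protein-coding gene in basic GENCODE M21 was used. A promoter ran from 1000 bp before to 100 bp after a TSS. Reads at a summit and local background were recovered from fold and −log10 p under a Poisson model, with fold equal to reads plus 1 over background plus 1. Values were recovered for all but 1 row, within 0.005 of the deposited −log10 p, a tolerance that widened in proportion for large values. The strongest row stood for a region. Poisson intervals of reads and conditional Clopper-Pearson intervals of ratios are at 95% and, like the Wilson intervals, cover counting error only. The NF-kB, AP-1 and RBPJ sequences were looked for on either strand up to 100 bp from the summit. The recovery was tested on simulated data.

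For each of the 10 genes the regions named were those at promoters, the strongest in each list, the list-only region of highest fold and the shared regions that differed most in each direction. Other regions named were chosen after their values were seen. The members, gene lists and settings were chosen with earlier results of these data known. Pathway genes were named where they had at least 4 list-only regions, and 4 more, chosen after their values were seen, because they had no region. Alternatives were other row thresholds, overlap rules, gene assignments, ranked values, windows and promoter widths. The computation used Python 3.11.15 with numpy 2.4.6, pandas 2.3.3, scipy 1.17.1 and pysam 0.24.0. Coordinates are 1-based.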

Additional observations from a re-analysis of the deposited data

How the results depend on the processing

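No paired analysis was possible because each of the lists analysed here pools the samples of its group, and for the same reason no tumour was left out in turn. Scaling the Dll1- list to the Dll1+ depth left 94 shared, 10 Dll1+ only and 32 Dll1- only regions, but it kept 146652 of 148923 rows and so could move little. Equal numbers of rows gave 93, 11 and 26. With the stronger rows of each list alone, 54 regions were shared and 18 were Dll1- only. A reciprocal overlap of 50% gave 19 Dll1+ only regions, a limit of 50 kb gave 6, and requiring a list-only region to reach the median fold of its list left 2 Dll1+ only and 7 Dll1- only. The Dll1+ share of list-only regions ran from 21.4% to 32.8% over 7 alternatives. Ranking among shared regions only gave a median percentile difference of −0.555 (all shared regions −0.091) with 8 regions at least 20 points toward Dll1+ (8.51% beside 9.77% of all shared regions) and 4 toward Dll1- (4.26% beside 9.44%), so that the Dll1+ share was no longer above the background. A mean over the rows of a region gave 16 regions toward Dll1+ (17% beside 9.65%) and 12 toward Dll1- (12.8% beside 15.9%). The uncentred reads ratio, an alternative added after the data were seen, gave 29 regions toward Dll1+ and 4 toward Dll1-. A window of 50 bp each side lowered the NF-kB share to 6.62% (all regions 1.58%) and the RBPJ share to 3.68% (2.04%). Stricter rows, the limit and the narrow window select fewer regions or bases by construction, and the cause of the other shifts was not tested. A promoter of 2500 bp each side gave 16 regions, 15 of them shared. For single genes, 180 of 230 counts stayed within 1.5 times their value, and 41 of 50 median percentile differences kept their sign. Few reads at a summit limit the comparison: list-only member regions had a median of 23 reads for Dll1+ and 39 for Dll1-.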

Other observations

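The background around the summits differed between genes. In the shared regions of Bcl3 the local background was 5.57 times the genome-wide level in Dll1+ and 5.47 times in Dll1- (medians of 8 regions), and in those of Tnfaip3 it was 1.00 and 1.03 times (15 regions). The Dll1+ to Dll1- ratio of scaled local background had a median of 1.28 in Nfkb1 and 1.29 in Nfkbiz, beside 1.02 over all shared regions, and reached 2.32 in Nfkb1. The genes Rnf31, Sharpin, Commd1 and Nfkbil1 of the pathway lists had no region of their own, because a neighbouring start was nearer.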
